A study of Mus musculus with 8 samples.

Results

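The PPAR, PGC-1 and ERR regulators are the nuclear receptors, coactivators and mitochondrial factor that set the capacity of heart muscle to burn fatty acids. They were taken here as 10 genes, namely Ppara, Ppard, Pparg, Ppargc1a, Ppargc1b, Rxra, Esrra, Esrrb, Esrrg and Tfam. Each was read from a probe set annotated with that symbol alone, and where a gene had several, the brightest on average was used. All 10 were measured, among 19938 genes with a probe set of their own, and Ppargc1a was the 1 member with a second probe set.

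The arrays came from hearts of 9-week-old C57Bl6 mice, either wild type (WT) or homozygous for Gata4 S105A, a serine-to-alanine substitution in the cardiac transcription factor GATA4. Both genotypes were left untreated or received PE, which the labels spell out as pseudoephedrine, from a subcutaneous osmotic pump over 5 days, with a daily dose of 100 mg per kg. PE is also the usual short form of phenylephrine, a drug that raises the load on the heart, and which of these was in the pumps was not settled here, so the treatment is called PE throughout. The titles call the other mice untreated, whereas the protocol has them on saline. There were 4 groups of 2 animals, with 1 array per animal. Animals 1 and 2 were untreated WT mice, animals 3 and 4 WT mice on PE, animals 5 and 6 untreated S105A mice, and animals 7 and 8 S105A mice on PE. The tissue is labelled both whole heart and ventricle, and how much atrium was included is not stated. Values are log2 expression values as the authors deposited them, and a difference of 1 on this scale is a doubling.

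Fatty acids entering a heart muscle cell act as ligands of the PPAR receptors, which bind DNA as pairs with RXR and switch on genes of fatty acid uptake and oxidation. The ERR receptors are orphan receptors that depend on the coactivators PGC-1alpha and PGC-1beta to drive genes of the citric acid cycle and the respiratory chain. TFAM coats mitochondrial DNA and acts as a factor in its transcription. The Tfam gene is a classic target of the nuclear respiratory factors NRF1 and GABP that PGC-1 coactivates. In failing and overloaded hearts, lower activity of this network is a well-known companion of a shift away from fatty acids as fuel.

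The sequences before the transcription starts of the members are shown first, because some of the same factors are known to act on several of them. Across the 8 arrays, which share the groups and array 3, the Pearson r of 45 pairs of members ran from 0.408 to 0.974 with a median of 0.849, and without array 3 from 0.022 to 0.944 with a median of 0.631. RefSeq windows of mouse assembly GRCm38.p6 were found for 9 of the 10 members, in 16 windows, since several genes have more than 1 start; Ppargc1b had none in the table used. The 250 bases before each start were searched on both strands for 14 short motifs. In each line the 100 bases before the start are given 5′ to 3′ on the gene's strand, with the match in capitals. Rxra had 2 windows and Pparg 3, and for each a window holding the match is shown. The other Rxra window had no such half-site.

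Ppara, chr15:85735676-85735775, plus strand, with the palindromic NRF1 motif: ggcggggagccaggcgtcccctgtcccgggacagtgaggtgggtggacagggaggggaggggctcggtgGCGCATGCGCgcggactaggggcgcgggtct
Tfam, chr10:71238045-71238144, minus strand, with the GABP motif CCGGAAGT: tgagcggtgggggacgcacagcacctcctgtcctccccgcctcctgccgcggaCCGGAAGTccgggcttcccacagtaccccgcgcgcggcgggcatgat
Pparg, chr6:115361044-115361143, plus strand, with the nuclear receptor half-site AGGTCA: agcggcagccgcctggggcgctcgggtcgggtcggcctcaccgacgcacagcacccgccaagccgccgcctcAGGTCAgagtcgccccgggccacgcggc
Rxra, chr2:27709192-27709291, plus strand, with the same half-site on each strand: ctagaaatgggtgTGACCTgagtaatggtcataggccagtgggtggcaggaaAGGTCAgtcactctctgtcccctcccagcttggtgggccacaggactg
Ppargc1a, chr5:51567726-51567825, minus strand, with the CREB half-site TGACG on the other strand: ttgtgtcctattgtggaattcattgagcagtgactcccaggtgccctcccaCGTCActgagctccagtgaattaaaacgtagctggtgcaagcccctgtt

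Among all 32851 windows of the same length, 0.782% held the NRF1 motif and 2.88% the GABP motif. The half-site AGGTCA was in 14.0% of all windows and in 3 windows of 2 members, and TGACG was in 17.8% of all windows and in 3 members. The extended ERR element TCAAGGTCA, which contains the half-site, was in 0.387% of all windows and the PPAR element DR1, a direct repeat of the half-site with a single base between the copies, in 0.0335%. Neither was in a window of a member, nor were the full CREB site TGACGTCA (1.55%), the A-rich MEF2 site (0.240%) or the E-box CACGTG (6.02%). Of 4 GATA motifs, AGATAA was in 9.99% of all windows, TGATAA in 7.94%, AGATAG in 7.71% and TGATAG in 6.35%; AGATAG matched in 1 window of Esrrb, and the other 3 in no window of a member. The GC box GGGGCGGGG was in 10.4% of all windows and in windows of Ppard, Pparg and Rxra. A match of letters is no measurement of binding.

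Of the variance across the 19938 genes, 69.5% lay along 1 principal component, on which the WT PE array 3 was at 53.3 and the S105A PE array 7 at 25.1, apart from arrays 4 and 8 (-0.41 and -5.0) and from the untreated arrays (-20.8 to -16.1). Beside the PE differences of the members and gene lists, values without these arrays are therefore given. Gata4 lay between 9.92 and 10.16 in the 8 arrays, and a substitution cannot be seen by its probe set. The heart muscle markers, 12 of 12 measured, had array means of 13.42 to 13.43 in the untreated arrays, 13.19 in array 3 and 13.39 to 13.44 in the other PE arrays.

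The first question was what PE did to the regulators in either genotype. All 10 had lower group means with PE than without it in WT and in S105A hearts, as 51.1% and 56.4% of all genes did. In WT the median difference was -0.44 log2 units over the 10, against -0.004 over all genes, and in S105A it was -0.31 against -0.02. None passed an adjusted p of 0.05 by limma in either genotype, where 0.00502% of all genes passed in WT and 0% in S105A. At an unadjusted p under 0.05, 7 of the 10 were lower in WT, all but Ppargc1a, Ppargc1b and Esrrb, against 5.76% of all genes, and 0 of the 10 in S105A, against 2.77%.

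**Figure D1:**
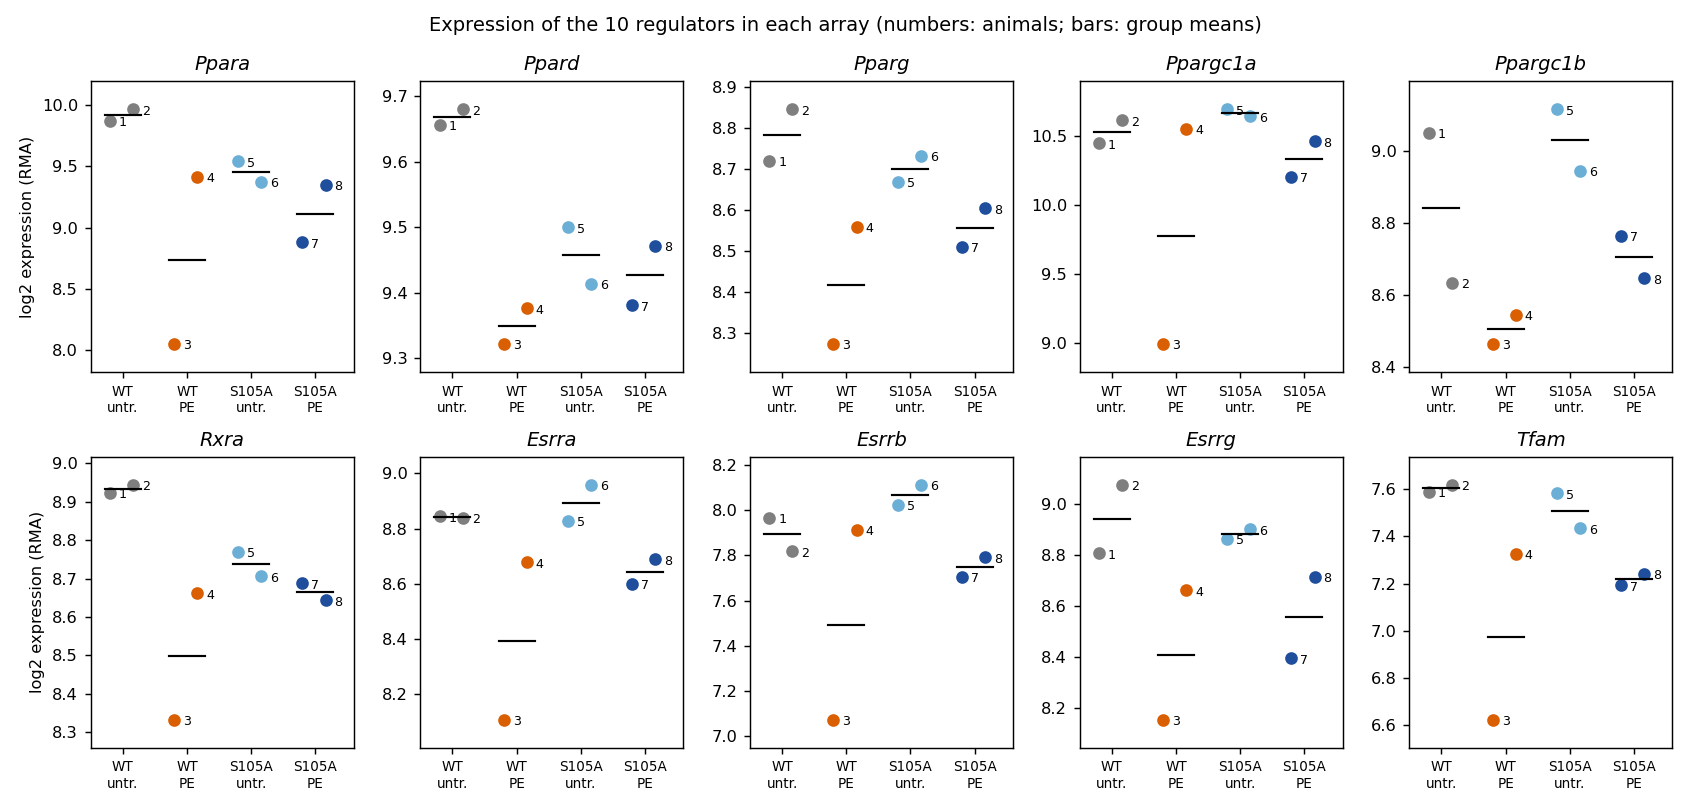
The log2 expression value of each of the 10 regulators (vertical axis, a separate scale for each gene) is plotted for every array, by group, with animal numbers beside the points and bars at group means. Array 3 is the lowest of the 8 arrays in every panel.

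Among the receptors of fatty acids, Ppara, the main PPAR of heart muscle and a driver of fatty acid oxidation genes, read 9.87 and 9.97 in the WT untreated arrays and 8.05 and 9.41 in the WT PE arrays. In S105A hearts it read 9.54 and 9.38 untreated and 8.88 and 9.35 with PE. In each genotype both PE arrays lay below both untreated arrays, but array 4 lay above the S105A untreated array 6. The difference was -1.19 in WT (SE 0.40, 2.28-fold lower, limma adjusted p = 0.419) and -0.34 in S105A (SE 0.40, adjusted p = 0.828). They were -0.51 and -0.11 without arrays 3 and 7. By group mean the order was WT untreated, S105A untreated, S105A PE and WT PE, and the last 2 overlapped.

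Ppard, a PPAR present in many tissues that also acts on fatty acid oxidation in the heart, read 9.66 and 9.68 in WT untreated and 9.32 and 9.38 in WT PE. In S105A it read 9.50 and 9.41 untreated and 9.38 and 9.47 with PE. The WT groups were apart, the S105A groups overlapped, and arrays 3 and 4 were nearly alike. The difference was -0.32 in WT (SE 0.08, limma adjusted p = 0.419, unadjusted p = 0.00575), the smallest unadjusted p of the 10 in this comparison, and it was -0.29 without array 3. In S105A it was -0.03 (SE 0.08), with the sign turned to 0.01 without array 5, and to 0.02 without array 7 or without arrays 3 and 7.

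Pparg, the receptor that directs fat cell formation, read 8.72 and 8.85 in WT untreated, 8.27 and 8.56 in WT PE, 8.67 and 8.73 in S105A untreated and 8.51 and 8.60 in S105A PE. All 4 PE arrays lay below all 4 untreated arrays. The difference was -0.37 in WT (SE 0.11, limma adjusted p = 0.419) and -0.14 in S105A (SE 0.11, adjusted p = 0.774), or -0.22 and -0.10 without arrays 3 and 7. Of the 7 fat cell markers measured, 5 were lower in WT and 5 in S105A, where 51.1% and 56.4% of all genes were. Their array means were 6.85 to 6.94 untreated and 6.63 to 6.89 with PE. Among them the hormone gene Adipoq lay between 4.60 and 5.02 and Lep between 4.68 and 4.91 in the 8 arrays. The marker Lipe had PE differences of -0.61 in WT and -0.30 in S105A, and Fabp4 had -0.35 and -0.16. Without arrays 3 and 7 these were -0.189 and -0.075 for Lipe and -0.055 and -0.059 for Fabp4. In each genotype 2 of the 7 markers were higher with PE. The part of fat cells in the Pparg values was not tested.

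Rxra, the shared DNA-binding partner of the PPARs, read 8.92 and 8.94 in WT untreated, 8.33 and 8.66 in WT PE, 8.77 and 8.71 in S105A untreated and 8.69 and 8.64 in S105A PE. Again all 4 PE arrays lay below all 4 untreated arrays, in S105A by a narrow margin. The difference was -0.44 in WT (SE 0.12, limma adjusted p = 0.419) and -0.07 in S105A (SE 0.12, adjusted p = 0.870). With arrays 3 and 7 left out these were -0.27 and -0.09.

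The other RXR genes were in the fixed list of partners. Rxrg, the isotype of striated muscle, read 11.04 and 11.01 in WT untreated, 9.37 and 10.62 in WT PE, 10.76 and 10.80 in S105A untreated and 10.10 and 10.76 in S105A PE, with differences of -1.03 in WT (SE 0.39) and -0.35 in S105A that did not pass (limma adjusted p = 0.292 for the average over genotypes). As for Ppara, array 3 was the lowest and array 7 the next, and the differences without them were -0.41 and -0.02. Rxrb, the widely expressed isotype, had differences of -0.14 and -0.08, or -0.03 and -0.06 without arrays 3 and 7.

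The coactivator Ppargc1a, which encodes PGC-1alpha and is induced by cold, fasting and exercise, read 10.45 and 10.62 in WT untreated and 8.99 and 10.55 in WT PE. In S105A it read 10.69 and 10.64 untreated and 10.20 and 10.46 with PE. The WT groups overlapped, because array 4 lay between the untreated arrays, and the S105A groups did not. The difference was -0.76 in WT (SE 0.44, limma adjusted p = 0.467) and -0.34 in S105A (SE 0.44, adjusted p = 0.843). In WT it was 0.02 without array 3, so the lower WT mean rested on that array, and in S105A it was -0.21 without array 7. A second probe set gave -0.77 in WT and -0.11 in S105A. On that probe set the S105A groups overlapped, at 10.55 and 10.33 untreated and 10.11 and 10.54 with PE.

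Ppargc1b, which encodes the related coactivator PGC-1beta, was less tied to array 3. It read 9.05 and 8.63 in WT untreated, 8.46 and 8.55 in WT PE, 9.12 and 8.95 in S105A untreated and 8.77 and 8.65 in S105A PE. The groups did not overlap in either genotype, although the WT untreated arrays were 0.42 apart and array 2 lay below array 7. The differences were -0.34 in WT and -0.33 in S105A (SE 0.15 each, limma adjusted p = 0.419 and 0.765), and -0.30 and -0.39 without arrays 3 and 7. The WT value rested more on the untreated arrays, being -0.13 without array 1 and -0.55 without array 2.

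Among the ERR receptors, Esrra, which drives mitochondrial genes in muscle and is itself raised by PGC-1alpha, read 8.84 and 8.84 in WT untreated, 8.11 and 8.68 in WT PE, 8.83 and 8.96 in S105A untreated and 8.60 and 8.69 in S105A PE. All 4 PE arrays lay below all 4 untreated arrays. The difference was -0.45 in WT (SE 0.18, limma adjusted p = 0.419) and -0.25 in S105A (SE 0.18, adjusted p = 0.765), and -0.16 and -0.20 without arrays 3 and 7.

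Esrrg, the isotype enriched in oxidative muscle and heart, read 8.81 and 9.07 in WT untreated, 8.15 and 8.66 in WT PE, 8.86 and 8.90 in S105A untreated and 8.39 and 8.71 in S105A PE. The PE and untreated arrays were apart here too. The difference was -0.53 in WT (SE 0.19, limma adjusted p = 0.419) and -0.33 in S105A (SE 0.19, adjusted p = 0.765), or -0.28 and -0.17 without arrays 3 and 7.

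Esrrb, best known from early embryo and placenta, read 7.97 and 7.82 in WT untreated, 7.07 and 7.91 in WT PE, 8.02 and 8.11 in S105A untreated and 7.71 and 7.79 in S105A PE. Like Ppargc1a it overlapped in WT through array 4 and was apart in S105A. The WT difference of -0.40 (SE 0.25, limma adjusted p = 0.489) became 0.02 without array 3, while that in S105A was -0.32 (SE 0.25, adjusted p = 0.772) and -0.28 without arrays 3 and 7.

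Tfam, the mitochondrial DNA packaging and transcription factor, read 7.59 and 7.62 in WT untreated, 6.63 and 7.33 in WT PE, 7.58 and 7.43 in S105A untreated and 7.19 and 7.24 in S105A PE. All 4 PE arrays lay below all 4 untreated arrays. The difference was -0.63 in WT (SE 0.21, 1.54-fold lower, limma adjusted p = 0.419) and -0.29 in S105A (SE 0.21, adjusted p = 0.765). Leaving out arrays 3 and 7 gave -0.28 and -0.27.

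**Figure D2:**
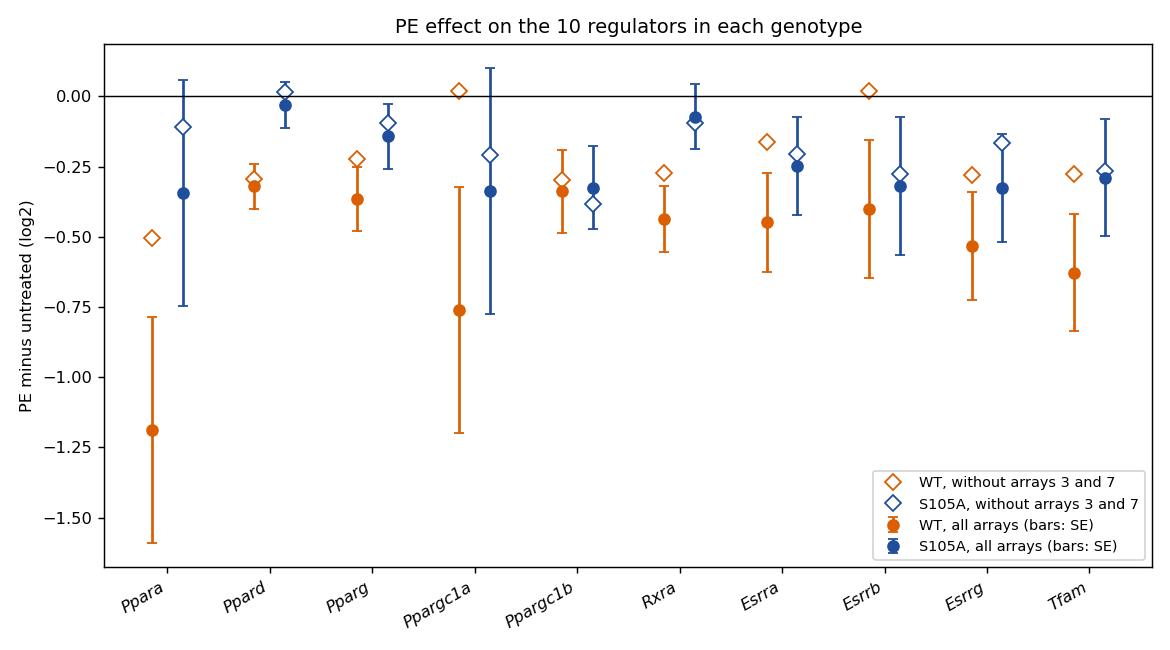
PE minus untreated on the log2 scale is plotted for each regulator in WT and S105A hearts, with filled points and SE bars for all arrays and open diamonds for the values without arrays 3 and 7. The filled points are all below 0, and the open diamonds of Ppargc1a and Esrrb in WT and of Ppard in S105A lie just above it.

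Averaged over the genotypes, the PE difference ran from -0.77 for Ppara (SE 0.28) and -0.55 for Ppargc1a (SE 0.31) to -0.18 for Ppard (SE 0.06), with a median of -0.35 against -0.02 over all genes. All 10 were below 0, as were 56.0% of all genes. None of the 10 passed (limma adjusted p of 0.277 to 0.382), where 0.00502% of all genes did, that is Myh7, the fetal myosin gene, alone. At an unadjusted p under 0.05, 8 of the 10 were lower, all but Ppargc1a and Esrrb, against 7.44% of all genes. For 5 members, Pparg, Rxra, Esrra, Esrrg and Tfam, all 4 PE arrays lay below all 4 untreated arrays, which held for 6.15% of all genes. Within WT 8 members did not overlap and lay lower with PE, against 23.5% of all genes, and within S105A 9 did, against 25.2%. The 9 include Ppargc1a, whose S105A groups overlapped on its second probe set.

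The size of these differences followed 2 arrays. Array 3 was the lowest of the 8 for all 10 members, which held for 25.9% of all genes. It lay below its group partner, array 4, by 1.56 for Ppargc1a, by 1.37 for Ppara, by 0.84 for Esrrb and by 0.70 for Tfam, but by 0.05 for Ppard and 0.08 for Ppargc1b. Array 7 lay below array 8 for 8 members, against 55.4% of all genes, by 0.47 for Ppara, and above it for Ppargc1b and Rxra. Array 4 alone lay below both WT untreated arrays for 8 members, as it did for 34.9% of all genes, and array 8 alone below both S105A untreated arrays for 9, against 35.1%.

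Without array 3 the median of the members in WT was -0.28, with 8 of 10 lower, where 9790 of 19938 genes were. Of the same genes, 10077 were lower in the average over genotypes without arrays 3 and 7. Without arrays 3 and 7 the averaged median was -0.18, with 10 of 10 lower and adjusted p from 0.202 to 0.720. Without array 4, in contrast, 8 of the 10 passed in WT, all but Ppard and Ppargc1b, with Ppara at -1.87 and Ppargc1a at -1.54 (limma adjusted p = 0.00557 and 0.00517). In the average over genotypes without array 4, Ppara was at -1.107 and Ppargc1a at -0.938. That fit has lost the difference between arrays 3 and 4 from its estimated spread and rests on array 3 alone for the WT PE level, and it called 3541 of all genes in WT, against 1 with all arrays.

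Markers of other cells moved with the same arrays. Of the macrophage markers, 12 of 12 were higher with PE in each genotype. Of all 19938 genes, 9759 were higher in WT and 8694 in S105A. The macrophage markers had array means of 8.02 to 8.42 untreated and 9.66, 8.84, 9.26 and 8.60 in arrays 3, 4, 7 and 8. The fibroblast markers, 10 of 10 higher, had array means of 9.14 to 9.38 untreated and 10.97, 10.06, 10.81 and 10.12 in the same arrays. By array mean, arrays 3 and 7 were thus highest for both cell types and lowest for the 10 regulators, though not for each regulator. The part of these cells in the lower values of the regulators was not tested. Endothelial markers, 8 measured, had array means of 10.03 to 10.28 untreated and 9.68, 10.03, 9.91 and 10.10 in arrays 3, 4, 7 and 8. Of the atrial markers 3 of 6 were higher with PE on average, of the brown fat markers 2 of 5, and of the erythroid markers 0 of 2 measured. On average 8775 of the 19938 genes were higher. In bulk tissue, fewer heart muscle cells and less RNA of a gene per cell cannot be told apart. The heart muscle markers had an averaged PE difference of -0.13 in the median, with 7 of 12 lower, where 56.0% of all genes were.

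**Figure D3:**
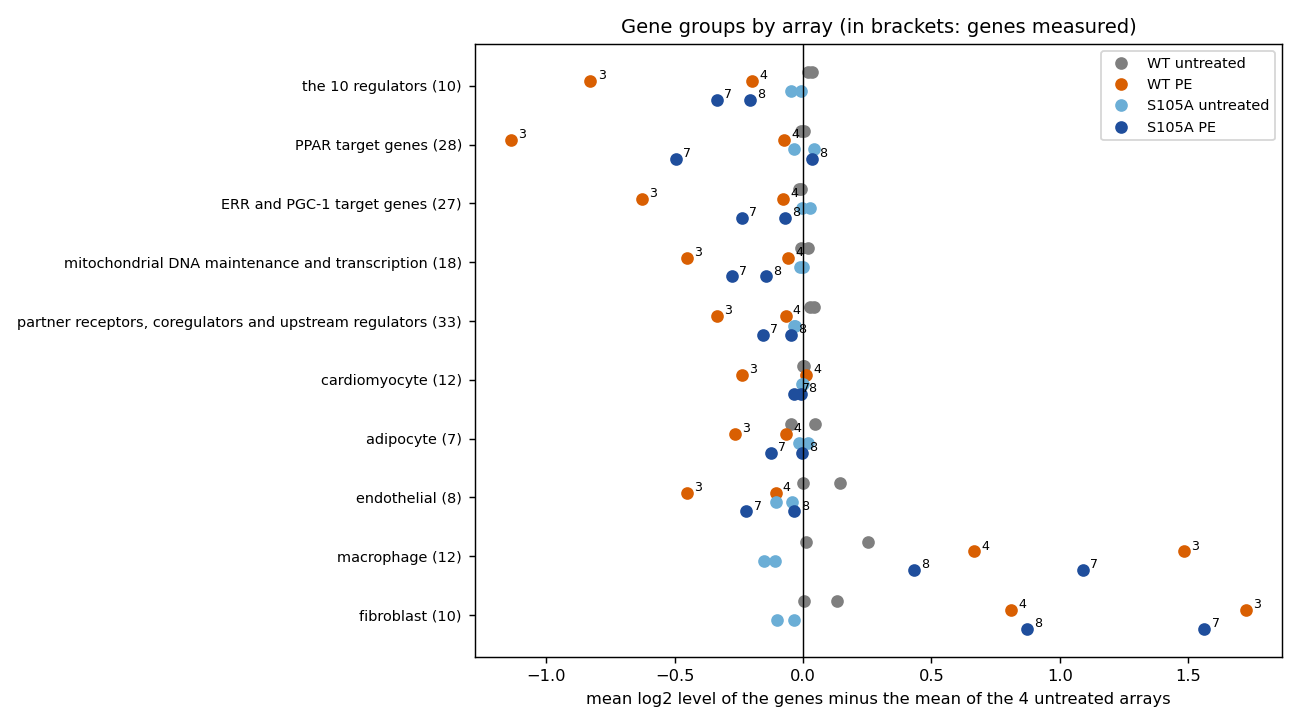
The mean log2 level of each gene group, minus its mean over the 4 untreated arrays (horizontal axis), is plotted for each array, with numbers beside the PE arrays. Array 3 lies at -0.83 for the regulators and -1.14 for the PPAR target genes, and at 1.49 and 1.73 for the macrophage and fibroblast markers.

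The genes that the regulators act on were followed in fixed lists. Of 28 measured PPAR target genes, 25 were lower with PE on average and 3 higher, where 56.0% of all genes were lower. The median was -0.48 (-0.65 in WT and -0.27 in S105A), with 0 past the threshold by limma. At an unadjusted limma p under 0.05, 3 were lower and 1 higher, where 7.44% of all genes were lower. All 4 PE arrays lay below all 4 untreated arrays for 10 of the 28, against 6.15% of all genes. Ucp3, a mitochondrial carrier long used as a PPARalpha readout, had a difference of -1.06 (SE 0.67), Acot2, a mitochondrial acyl-CoA thioesterase, one of -0.74 and its neighbour Acot1 one of -0.53. Pdk4, the kinase that shuts off pyruvate oxidation, had one of -0.35, which was 0.003 without array 3 and turned to 0.31 without arrays 3 and 7. Without both arrays Ucp3 was at 0.09 and Acot2 and Acot1 at -0.11 each. Angptl4, a secreted inhibitor of lipoprotein lipase and a PPAR target in many tissues, lay on the other side at 0.44 (SE 0.17, limma adjusted p = 0.288), and at 0.69 without arrays 3 and 7.

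Single arrays stood out among the target genes. Ucp3 read 8.80 and 7.90 in WT untreated, 5.51 and 8.17 in WT PE, 8.29 and 8.93 in S105A untreated and 7.06 and 8.97 in S105A PE. Arrays 4 and 8 lay within or near the range of the untreated arrays, and the low values were those of arrays 3 and 7. Relative to the untreated mean, the list as a whole was at -0.07 in array 4 and 0.03 in array 8, where the 10 regulators were at -0.20 and -0.21. The averaged median of the PPAR targets was -0.08 without arrays 3 and 7, with 22 of 28 lower.

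The ERR and PGC-1 target genes, of the citric acid cycle, respiratory chain and mitochondrial upkeep, were lower with PE for 27 of 27 measured. Of all genes 56.0% were lower. The median of the list was -0.26, with 0 past the threshold by limma. At an unadjusted limma p under 0.05, 7 were lower, against 7.44% of all genes. For 14 of the 27 all 4 PE arrays lay below all 4 untreated arrays, against 6.15% of all genes. The mitochondrial creatine kinase Ckmt2 had a difference of -0.32, cytochrome c (Cycs) one of -0.17, the fusion protein Mfn2 one of -0.17 and citrate synthase (Cs) one of -0.12. Without arrays 3 and 7 the median was -0.06, with 26 of 27 lower, and Ckmt2 was at -0.05, Cycs at -0.06, Mfn2 at -0.11 and Cs at -0.02.

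Around Tfam, 16 of 18 measured genes of mitochondrial DNA maintenance and transcription were lower with PE, as were 56.0% of all genes. Their median was -0.28, with 0 past the threshold by limma. At an unadjusted limma p under 0.05, 8 were lower, against 7.44% of all genes. All 4 PE arrays lay below all 4 untreated arrays for 7 of the 18, against 6.15% of all genes. The mitochondrial RNA polymerase gene Polrmt had a difference of -0.31 with no overlap between PE and untreated arrays, the transcription factor Tfb2m one of -0.36 and the DNA polymerase gene Polg one of -0.14. The upstream factors Nrf1 and Gabpa, whose motifs stand before Ppara and Tfam, had differences of -0.08 and -0.13 (SE 0.08 and 0.11), with overlap. Pprc1, the third PGC-1 family coactivator, had one of 0.17. Without array 3 the median of the list was -0.12, and without arrays 3 and 7 it was -0.11, with 15 of 18 lower. In the latter case Polrmt was at -0.19, Tfb2m at -0.10, Polg at -0.07, Nrf1 at 0.01, Gabpa at -0.02 and Pprc1 at 0.10. Transcripts of mitochondrial DNA itself were listed too, but none was matched to a probe set annotated with that symbol alone, so they were not analysed.

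Of 33 measured partners, coregulators and upstream regulators, 27 were lower with PE on average, as were 56.0% of all genes. Their median was -0.12, with 0 past the threshold by limma. At an unadjusted limma p under 0.05, 8 were lower and 1 higher, where 7.44% of all genes were lower. Klf15, a factor of fasting metabolism that works with PPARalpha, had a difference of -0.45, the deacetylase gene Sirt1 one of -0.21 and the AMPK subunit gene Prkaa2 one of -0.15. The corepressor gene Nrip1 was at -0.01. Of the thyroid hormone receptor genes, Thra was at -0.12 and Thrb at -0.60 (SE 0.20, limma adjusted p = 0.281). Thrb was named after its values were seen, as were Lpin1, whose product coactivates PPARalpha with PGC-1alpha, at -0.47, and the mitochondrial deacetylase gene Sirt3, at -0.42. Across 8 of the 33, Thrb and Sirt3 among them, all 4 PE arrays lay below all 4 untreated arrays. They lay above for 1 of the 33, and 6.15% of all genes lay below. Without arrays 3 and 7 the median of the list was -0.07, with 27 of 33 lower, and Thrb was at -0.26, Sirt3 at -0.21, Lpin1 at -0.19, Sirt1 at -0.09, Klf15 and Thra at -0.07 each, Prkaa2 at -0.02 and Nrip1 at 0.10.

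**Figure D4:**
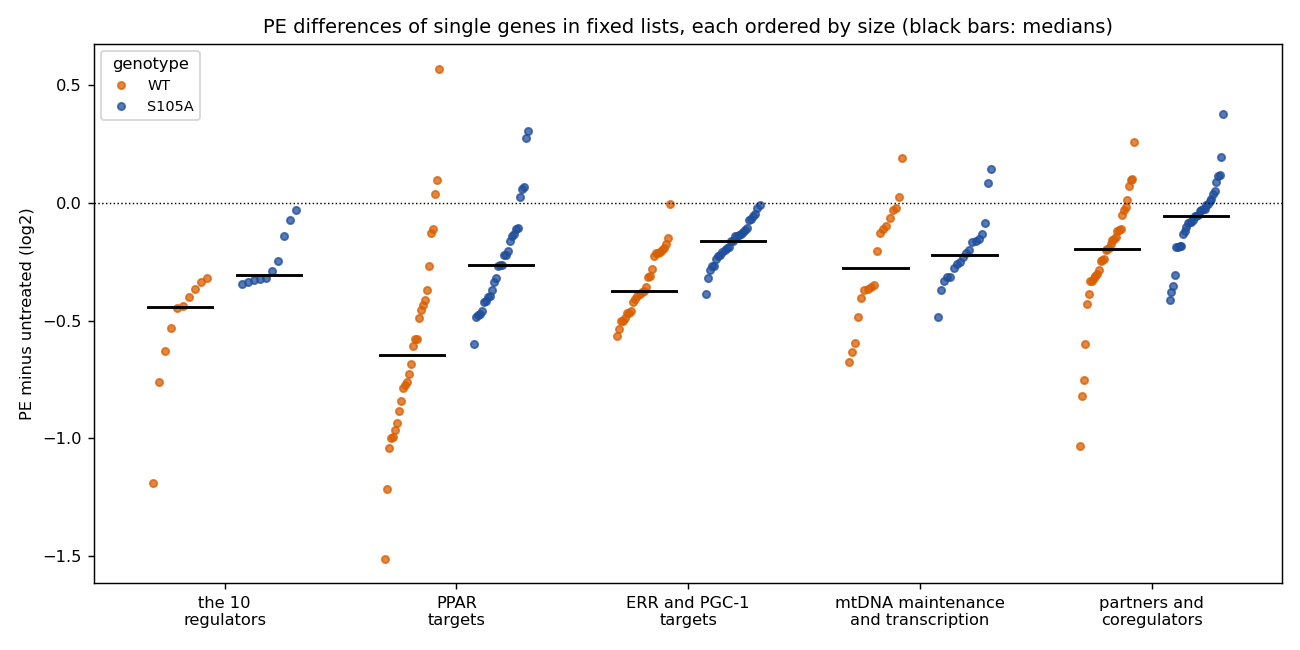
PE minus untreated (log2) is plotted for every measured gene of the 5 lists, ordered by size within each genotype, with black bars at the medians. The medians lie below 0 in both genotypes, at -0.65 and -0.27 for the PPAR targets and -0.37 and -0.16 for the ERR and PGC-1 targets, and Angptl4 is the highest WT point.

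The next question was whether genotype altered the regulators. Without PE, 6 of the 10 were lower in S105A than in WT and 4 higher, where 49.1% of all genes were lower, with a median of -0.07 against 0.003 over all genes. None passed by limma (adjusted p of 0.962 to 0.998), as none of all genes did (0%). At an unadjusted p under 0.05, Ppard alone was lower, at -0.21 (SE 0.08, unadjusted p = 0.0350), against 2.53% of all genes. Ppara had a difference of -0.46 (SE 0.40), Rxra -0.20, Tfam -0.10, Ppargc1a 0.14, Ppargc1b 0.19 and Esrrb 0.17. For Ppara, Ppard, Rxra and Tfam both S105A arrays lay below both WT arrays, where 22.7% of all genes did so, and for Ppargc1a and Esrrb both lay above, where 21.8% did. The second probe set of Ppargc1a gave -0.18 and so had the opposite sign.

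With PE, all 10 had higher means in S105A than in WT, as 46.9% of all genes did, with a median of 0.22 against -0.01 over all genes. None passed by limma (adjusted p = 0.989 for each), where 0% of all genes did, and 0 had an unadjusted p under 0.05, against 1.25% of all genes in this direction. Ppargc1a had a difference of 0.56 (SE 0.44), Ppara 0.38 (SE 0.40), Esrrb 0.26, Esrra 0.25 and Tfam 0.24. Both S105A arrays lay above both WT arrays for 2 members, Ppard and Ppargc1b, against 10.5% of all genes. This comparison uses array 3, as does the PE effect in WT. Without array 3 the median was -0.07 and 7 of 10 were lower in S105A, where 10700 of 19938 genes were. Among the 7 were Ppara at -0.30 and Ppargc1a at -0.22. Without arrays 3 and 7 the median was -0.003, with 5 of 10 lower, against 10303 of 19938 genes. Without array 4, Ppargc1a was at 1.34 and Ppara at 1.065, that is, higher in S105A.

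The PE effect was smaller in size in S105A than in WT for all 10 members, and the difference of the effects was tested as an interaction. Its median was 0.26, against -0.01 over all genes; it was above 0 for all 10 members, as for 47.5% of all genes, and none passed by limma (adjusted p = 1.00 for each), where 0% of all genes did. At an unadjusted p under 0.05 there was 1 of the 10, Ppard, at 0.29 (SE 0.11, unadjusted p = 0.0397), against 0.903% of all genes in this direction. Ppara had an interaction of 0.85 (SE 0.57), Ppargc1a 0.42 (SE 0.62), Rxra 0.36 (SE 0.16) and Ppargc1b 0.01 (SE 0.21). Without array 3 the median was -0.02 and 6 of 10 were below 0, as were 10475 of 19938 genes. Without arrays 3 and 7 it was 0.06 and 4 of 10 were below 0, as were 10120 of 19938 genes. For the PPAR targets the median was 0.36 with all arrays, -0.19 without array 3, and 0.05 without arrays 3 and 7, with 6 of 28 below 0.

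To place the members among all genes, the genes whose values went most alike over the 8 arrays were sought among the 6323 genes that ranged over at least 0.5 log2 units. These correlations describe 8 arrays that share the groups and array 3, and were chosen as the highest of many, so they carry no test. For Tfam the most alike was Mterf3, a regulator of mitochondrial transcription in the list above, with a Pearson r of 0.997 (0.990 without array 3). For Ppargc1a it was Tnni3, the cardiac troponin I gene, with 0.996 (0.952 without array 3), and for Esrra it was Atp5pb, a subunit gene of ATP synthase, with 0.995 (0.990). For Ppara the first were Nfyc, Ankrd33b and Slc25a12, the last a mitochondrial aspartate-glutamate carrier, with 0.995, 0.993 and 0.993. For Ppargc1b the highest was lower, 0.947 with Ugt2b37.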

How the data were processed

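RNA from 8 mouse hearts was hybridized to 1 Affymetrix array each, per the labels. The deposited table holds log2 expression values on which the authors had run RMA, according to the submitters' processing notes, which give no version. RMA makes the arrays' distributions alike, so a shift shared by most genes would be removed. Array medians lay between 6.18 and 6.23, and the number of arrays limits the precision. Of 35557 rows, the platform annotation gave 21789 a single gene symbol, 1621 several and 12147 none; the first kind yielded 19938 genes, using the brightest probe set for the 999 genes that had more than 1. No detection calls were used.

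A linear model with a coefficient for each group was fitted over all genes and arrays (limma 3.58.1, R 4.3.3; lmFit, contrasts.fit and eBayes), with 4 residual and 2.74 prior degrees of freedom. P values are two-sided, adjusted by Benjamini-Hochberg over all genes, with a threshold of 0.05. The fit was tested on simulated data. The members and lists were chosen with earlier results of these data known. All 10 members were named whatever their values, and genes were named from the lists for their roles. Thrb, Lpin1, Sirt3, Lipe and Fabp4 were exceptions, named after their values were seen. Most alike genes were the 3 with the highest Pearson r for each member ranging over at least 0.5. Alternatives were averaging the probe sets of a gene, a filter on the 40% lowest genes, all rows, a further quantile normalization, median centring, trended and robust variance, array weights, only the 4 arrays compared, no interaction, and leaving out arrays. Figures were drawn with matplotlib 3.10.9.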

Additional observations from a re-analysis of the deposited data

Results flagged for a closer look

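Ppard was singled out because its genotype difference had opposite signs without and with PE in every array. Both S105A untreated arrays lay below both WT untreated arrays (9.50 and 9.41 against 9.66 and 9.68), and both S105A PE arrays lay above both WT PE arrays (9.38 and 9.47 against 9.32 and 9.38). The interaction was 0.289 (SE 0.11, limma adjusted p = 1.00, unadjusted p = 0.0397), so the difference did not pass. The margin between arrays 7 and 4 was the narrowest of these.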

How the results depend on the processing

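No paired analysis was possible because the groups share no animal numbers. Of 1010 recomputed values of single members, 951 kept their direction and their side of the threshold, 21 passed only under an alternative and 38 turned sign, of which 15 did so without array 3 and 12 when array 7 was dropped too. In 98 of 101 recomputations none of the 10 passed. With 1 array left out the number that passed ranged from 0 to 8 for PE in WT, from 0 to 8 for the averaged PE effect and from 0 to 5 for S105A against WT with PE, the higher counts being those without array 4. A group left with a lone array is assumed to vary like the others.

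The count of all genes past the threshold, with 1 array left out, ranged from 0 to 3541 for PE in WT, from 0 to 1 for PE in S105A, from 0 to 4137 for the averaged PE effect, from 0 to 3 for genotype without PE, from 0 to 711 for genotype with PE and from 0 to 7 for the interaction. In the same order these counts were 58, 30, 137, 4, 5 and 1 without arrays 3 and 7. For PE in WT the count was 0 with all rows or only the 4 arrays compared and 2 with array weights; for PE in S105A it was 1 with array weights. For genotype without PE it was 1 with averaged probe sets, median centring or a trended and robust variance, 6 with array weights and 4 with only the 4 arrays compared.

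Without arrays 3 and 7, signs turned for PE in WT for Ppargc1a (0.019) and Esrrb (0.020), for PE in S105A for Ppard (0.015), for genotype with PE for Ppara (-0.064), Ppargc1a (-0.090), Rxra (-0.018), Esrrb (-0.123) and Tfam (-0.084), and for the interaction for Ppargc1a (-0.226), Ppargc1b (-0.088), Esrra (-0.040) and Esrrb (-0.298). Averaging the probe sets turned genotype without PE for Ppargc1a (-0.024), and quantile normalization turned the interaction for Ppargc1b (-0.020). With 1 array left out, PE in WT ranged from -1.540 to 0.019 for Ppargc1a and from -0.821 to 0.020 for Esrrb, and PE in S105A from -0.076 to 0.015 for Ppard. Genotype without PE ranged from -0.020 to 0.398 for Ppargc1b, from -0.194 to 0.074 for Esrrg and from -0.014 to 0.116 for Esrra. Genotype with PE ranged from -0.300 to 1.065 for Ppara, from -0.002 to 0.283 for Pparg, from -0.219 to 1.339 for Ppargc1a, from -0.033 to 0.536 for Esrra, from -0.165 to 0.676 for Esrrb, from -0.107 to 0.401 for Esrrg and from -0.109 to 0.593 for Tfam. The interaction ranged from -0.355 to 1.203 for Ppargc1a, from -0.196 to 0.221 for Ppargc1b, from -0.084 to 0.485 for Esrra, from -0.340 to 0.501 for Esrrb, from -0.048 to 0.461 for Esrrg and from -0.013 to 0.688 for Tfam. Apart from the arrays named, the cause of these turns was not tested.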
